A study of Mus musculus with 18 samples.

Results

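Malat1, Neat1, Miat, Snhg11 and Gas5 are 5 RNAs of mouse brain that RefSeq lists as long noncoding RNAs, transcripts for which it annotates no protein. The first 3 are known as nuclear RNAs. They were taken by symbol from the 27179 genes of a table of read counts per gene, in which all 5 were found. All 5 also passed the filter on low counts, which left 15863 genes for testing. The mice were non-transgenic C57BL/6J animals (an inbred laboratory strain) that were gavaged once a day for 14 days from the age of 4 months. They received glyphosate, a herbicide, in neutralised aqueous solution, or the same solution without it. The groups were vehicle (5 mice, 2 males and 3 females), 125 mg/kg (5 mice, 3 males and 2 females), 250 mg/kg (4 mice, 3 males and 1 female) and 500 mg/kg (4 mice, 2 males and 2 females). RNA came from 1 side of a brain cut along the midline according to the methods, while another section of the study calls the sequenced tissue hippocampal. The experiment asked how the brain transcriptome changes with dose.

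Each library started from 250 ng of total RNA, from which ribosomal RNA was depleted. RNAs that lack a poly(A) tail and RNAs that are held in the nucleus are therefore counted together with mature messenger RNAs. Libraries held 3948096 to 11732885 counts, with 7789800 as the median. The libraries of G9 (vehicle) and G4 (500 mg/kg) had the lowest median correlations with the other mice, 0.942 and 0.943, against 0.959 to 0.975 for the rest. Results that move without these mice are given with and without them. All 4 mice of the 250 mg/kg group, and no others, carried the number 45 in their tags, whose meaning is not given, so the 250 mg/kg level cannot be told apart from what that number marks. Cages held mice of 1 sex and 1 dose, so dose and cage cannot be told apart either.

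As background, Malat1 is a nuclear RNA that concentrates in nuclear speckles, the compartments that store splicing factors. Neat1 is the scaffold of paraspeckles, nuclear bodies that form around its long isoform and hold RNA-binding proteins such as SFPQ and NONO. Miat, also known as Gomafu, is a neuronal nuclear RNA with repeated copies of a motif that resembles the branch point of introns and that binds splicing factor SF1. Snhg11 and Gas5 are host genes of small nucleolar RNAs, which are cut from their introns and guide chemical modification of ribosomal RNA. Snhg11 is a transcript of neurons. The spliced Gas5 RNA begins with an oligopyrimidine tract, is degraded in the cytoplasm by nonsense-mediated decay while it is translated, and has been described in cultured human cells as a decoy of the glucocorticoid receptor.

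In RefSeq on GRCm38, Malat1 (Entrez 72289) lies on chromosome 19 from 5795690 to 5802672 on the minus strand and is a single exon of 6983 bp. Neat1 (Entrez 66961) lies 22.0 kb further along the same chromosome and strand, from 5824708 to 5845480. GENCODE gives Neat1 a long isoform of 20771 bp and a short one of 3004 bp, and a count per gene does not separate them. Miat (Entrez 330166) is on chromosome 5 from 112213228 to 112228948 on the minus strand. Snhg11 (Entrez 319317) is on chromosome 2 from 158375713 to 158386474 on the plus strand, and GENCODE lists it as protein-coding where RefSeq lists it as a long noncoding RNA. Gas5 (Entrez 14455) is on chromosome 1 from 161034601 to 161038539 on the plus strand. GENCODE lists 25 Gas5 transcripts, of which 20 are retained-intron forms, and in RefSeq the gene overlaps Zbtb37 and the small nucleolar RNA Snord47, among others. The libraries were stranded, but the sources used here do not state whether reads were counted by strand, so reads of Gas5 and of the overlapping genes may be shared.

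The 3′ ends of Malat1 and Neat1 are shown because they set these RNAs apart from polyadenylated messengers. Both ends are cut by RNase P and are protected by a triple helix of U-rich elements with an A-rich tract, not by a poly(A) tail. The capitals mark, in order, the first U-rich element, the second U-rich element and the A-rich tract in GENCODE transcripts, written as DNA from 5′ to 3′ on the minus strand of GRCm38. The Malat1 stretch is chr19:5795982-5796069 and the Neat1 stretch is chr19:5824708-5824801, the end of the long isoform.
Malat1: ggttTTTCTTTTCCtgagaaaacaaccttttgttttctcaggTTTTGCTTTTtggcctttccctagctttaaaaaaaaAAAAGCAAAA
Neat1: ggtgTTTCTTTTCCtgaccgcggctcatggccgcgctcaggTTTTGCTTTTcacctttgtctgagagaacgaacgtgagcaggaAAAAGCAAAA
Malat1 and Neat1 were the 2 genes among 55341 gene symbols of the transcript set with all 3 elements in this order and gaps of at most 120 bases, elements that were themselves written down from these RNAs. The A-rich tract ends the long Neat1 model, whereas the Malat1 model continues for 292 bases beyond it. The short Neat1 isoform ends elsewhere, at chr19:5842307-5842336, and its last 30 bases hold the polyadenylation signal AATAAA, here in capitals.
Neat1 short isoform: tttacagcaaAATAAAggtttgagattgaa

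Miat is shown by the first cluster of its repeat, chr5:112217310-112217459 on the minus strand, with the motif ACTAAC in capitals.
Miat: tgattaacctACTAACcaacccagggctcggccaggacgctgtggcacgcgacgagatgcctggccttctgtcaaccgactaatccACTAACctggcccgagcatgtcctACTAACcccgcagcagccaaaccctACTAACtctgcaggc
The longest Miat transcript of 9163 bases held 11 copies of ACTAAC between positions 4942 and 6852, and 6 of these read TACTAAC. This was 1.2 copies per kb, the highest of 304 long noncoding genes with a transcript of at least 5000 bases, whose median was 0.129 per kb. The motif was searched for because it is the known repeat of Miat, so this rank is a description and no separate result. Neat1 held 4 copies and Malat1 0.

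Promoters are shown because Malat1, Snhg11 and Miat varied together across mice, and that of Gas5 is set beside them. Each stretch runs from 250 bases before to 50 bases after the start in RefSeq (GRCm38.p6), and capitals mark the short cyclic AMP response element TGACG, the GC box GGGCGG, on either strand, and the TATA box TATAAA. RefSeq promoters were matched for 4 of the 5 RNAs, and Neat1 is named only. The stretches are chr19:5802623-5802922 on the minus strand for Malat1, chr2:158375463-158375762 on the plus strand for Snhg11, chr5:112228899-112229198 on the minus strand for Miat, and chr1:161034916-161035215 on the plus strand for Gas5.
Malat1: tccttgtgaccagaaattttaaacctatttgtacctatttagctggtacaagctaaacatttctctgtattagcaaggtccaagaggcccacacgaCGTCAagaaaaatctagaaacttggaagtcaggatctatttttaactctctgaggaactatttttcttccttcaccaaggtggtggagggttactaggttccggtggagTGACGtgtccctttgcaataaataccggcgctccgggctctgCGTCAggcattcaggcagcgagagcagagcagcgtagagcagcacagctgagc
Snhg11: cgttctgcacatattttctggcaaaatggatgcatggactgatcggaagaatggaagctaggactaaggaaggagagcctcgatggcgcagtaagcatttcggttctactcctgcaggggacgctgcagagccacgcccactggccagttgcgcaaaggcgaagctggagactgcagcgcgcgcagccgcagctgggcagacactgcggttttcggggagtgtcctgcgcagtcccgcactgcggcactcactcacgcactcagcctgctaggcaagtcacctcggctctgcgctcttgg
Miat: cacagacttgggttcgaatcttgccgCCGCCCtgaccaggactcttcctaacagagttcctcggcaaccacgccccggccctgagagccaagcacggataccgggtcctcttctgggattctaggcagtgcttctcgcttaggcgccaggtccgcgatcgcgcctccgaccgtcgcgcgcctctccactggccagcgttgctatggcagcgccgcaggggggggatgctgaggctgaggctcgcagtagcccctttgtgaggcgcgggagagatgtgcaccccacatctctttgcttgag
Gas5: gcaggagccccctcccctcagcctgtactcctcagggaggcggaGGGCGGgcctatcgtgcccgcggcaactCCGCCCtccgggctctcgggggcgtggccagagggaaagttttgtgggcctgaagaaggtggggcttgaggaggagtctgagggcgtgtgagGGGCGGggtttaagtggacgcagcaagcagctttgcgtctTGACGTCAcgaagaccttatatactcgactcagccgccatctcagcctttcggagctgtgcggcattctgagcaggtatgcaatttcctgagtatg
The Gas5 stretch held 1 full cyclic AMP response element, TGACGTCA, at position -46 from the start, which 1.79% of the 32851 RefSeq promoters hold on either strand, and it contains an overlapping short site on each strand. RefSeq holds a second entry for Gas5 that starts further upstream, with 5 copies of the GC box and without a short site, which is not printed. The Malat1 stretch held 3 short sites, counting either strand. At least 1 such site was found in 20.8% of promoters, and the share with 3 was not computed. The GC box was found 3 times for Gas5, once for Miat and not for Malat1 or Snhg11, and 35.7% of promoters hold it. TATAAA (13.6% of promoters) and the palindromic glucocorticoid response element (0.00913%), searched by its consensus on both strands, were found in none of the 4 stretches.

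Malat1 and Snhg11 were abundant RNAs in these libraries, and the other 3 less so. Levels are CPM, the count of a gene scaled to a common library total, after TMM scaling for differences in library composition. Malat1 averaged 9336 ± 3641 CPM over the 18 mice (SD) and ranked at 4 of the 27179 genes by mean CPM, and Snhg11 averaged 1005 ± 396 CPM and ranked at 52. Miat averaged 157 ± 73.5 CPM (rank 1260), Neat1 55.5 ± 18 CPM (rank 3872) and Gas5 34.1 ± 7.34 CPM (rank 5597). Divided by the summed length of all annotated exons, levels were 1337 CPM per kb for Malat1, 118 for Snhg11, 16.9 for Miat, 9.06 for Gas5 and 2.67 for Neat1. The order of the last 3 rests on the length used. Division by its longest spliced transcript of 665 bp gave 51.2 CPM per kb for Gas5, and division by its short isoform of 3004 bp gave 18.5 CPM per kb for Neat1. Location in the nucleus was not measured.

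Counts were high enough that reading error was small beside the differences between mice. The lowest count in any mouse was 36531 for Malat1, 3674 for Snhg11, 303 for Miat, 173 for Neat1 and 152 for Gas5, the last of which carries a counting error of at most 8.11%, which does not cover copies made by amplification. The coefficient of variation over all mice was 46.8% for Miat, 39.4% for Snhg11, 39.0% for Malat1, 32.5% for Neat1 and 21.5% for Gas5, against a median of 23.2% over all tested genes. Miat was thus the most variable of the 5 and Gas5 the only one below the median gene.

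None of the 5 RNAs passed the test of a dose slope. In the regression of counts on dose with sex as a covariate, by edgeR's quasi-likelihood test with Benjamini-Hochberg adjustment, 0 of the 5 passed an adjusted p of 0.05, against 0.29% of all tested genes. At an unadjusted p under 0.05 the count was also 0 of 5, against 13.2% of genes, and limma-voom called none, as did DESeq2, against 1.4% of genes. The slopes, as log2 change per 500 mg/kg with SE, were 0.01 ± 0.31 for Malat1, 0.28 ± 0.28 for Neat1, 0.08 ± 0.35 for Miat, 0.26 ± 0.29 for Snhg11 and -0.16 ± 0.21 for Gas5. Adjusted p-values ran from 0.704 to 0.997. The Malat1 slope was -0.24 without the female G79 (500 mg/kg) and 0.26 without the male G1 (vehicle).

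**Figure D1:**
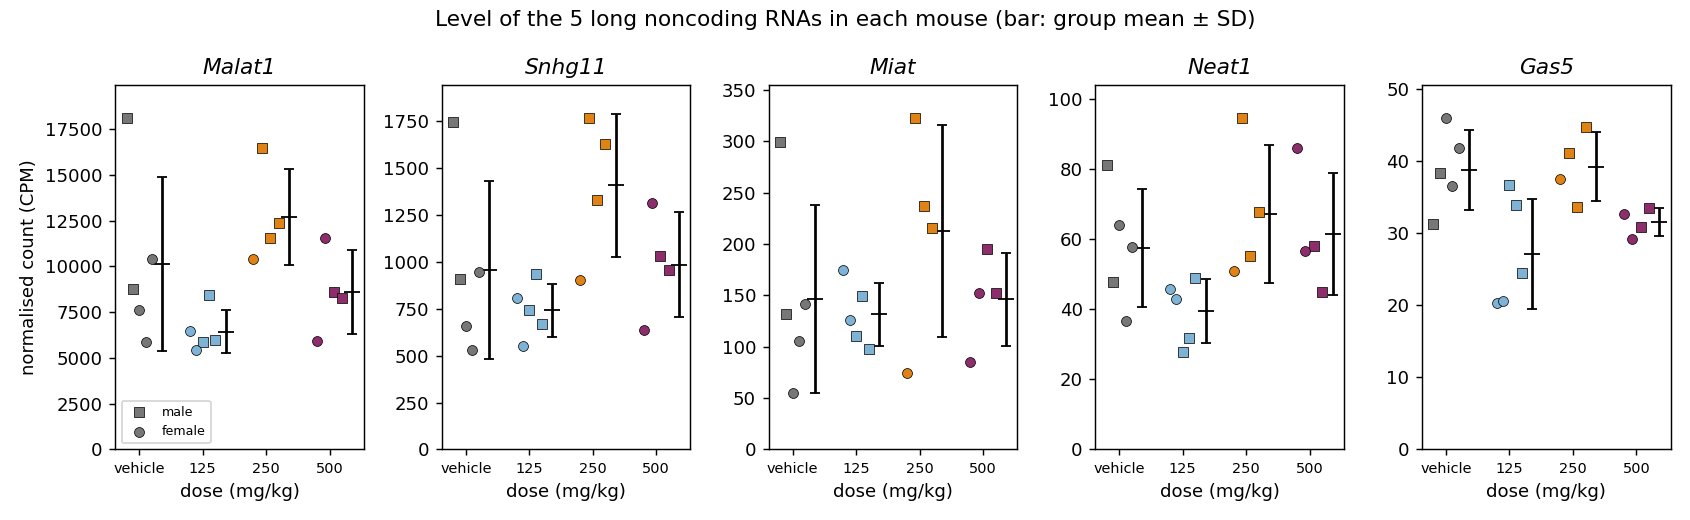
Normalised counts (CPM, linear axes from 0) of the 5 RNAs in each of 18 mice by dose in mg/kg, with squares for males, circles for females, and the group mean ± SD beside the points. The 125 mg/kg group has the lowest mean for every RNA, and the 250 mg/kg group the highest.

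By group means, 125 mg/kg was lowest and 250 mg/kg highest for all 5 RNAs, with vehicle and 500 mg/kg between them. A test for any difference among the 4 groups gave unadjusted p-values of 0.00947 for Gas5, 0.0113 for Malat1, 0.0330 for Neat1, 0.0419 for Snhg11 and 0.695 for Miat. None passed after adjustment over all genes (adjusted p of 0.220, 0.230, 0.296, 0.316 and 0.837, in the same order), and 0.0441% of tested genes did. At an unadjusted p under 0.05 the count was 4 of 5 members, against 15% of all genes. These 5 RNAs are not independent, since 3 of them varied together in the same mice. The departure from a straight dose line gave 0 of 5 past the threshold, against 0.0063% of genes, with unadjusted p-values of 0.00452 for Malat1 and 0.00489 for Gas5 and adjusted p-values of 0.278 and 0.282. At an unadjusted p under 0.05 the count was 4 of 5, against 11.7%, and DESeq2 and limma-voom called 0 of 5 in both tests.

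Malat1 was measured at 18103, 8754, 7592, 5866 and 10420 CPM in the vehicle mice G1, G5, G9, G15 and G18. It had 6489, 5442, 5870, 8411 and 5957 CPM in G25, G29, G34, G40 and G45 at 125 mg/kg. At 250 mg/kg it had 10379, 16475, 11574 and 12367 CPM in G49, G64, G66 and G71, and at 500 mg/kg 5940, 11539, 8616 and 8254 CPM in G4, G79, G87 and G90. The vehicle male G1 was the highest mouse of all and the vehicle group spanned nearly the whole range, so every dose group overlapped with it. All 5 mice at 125 mg/kg were below the vehicle median, and all 4 at 250 mg/kg were above it. Means were 10147 ± 4748 CPM with vehicle, 6434 ± 1166 CPM at 125 mg/kg, 12699 ± 2647 CPM at 250 mg/kg and 8587 ± 2297 CPM at 500 mg/kg (SD, n = 5, 5, 4 and 4). The fitted difference from vehicle was -0.69 ± 0.24 (log2, SE) at 125 mg/kg, with an adjusted p of 0.338, and -0.39 without G1. It was 0.23 ± 0.25 at 250 mg/kg and -0.23 ± 0.25 at 500 mg/kg, which without G1 were 0.57 and 0.05.

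Neat1 had 81.0, 47.8, 64.1, 36.8 and 57.6 CPM in the vehicle mice, in the order above. It had 45.8, 42.9, 27.8, 31.9 and 48.9 CPM in the 125 mg/kg mice. At 250 mg/kg the values were 50.8, 94.5, 55.2 and 67.6 CPM, and at 500 mg/kg 86.1, 56.7, 57.9 and 45.0 CPM. G64 at 250 mg/kg was highest, followed by G4 at 500 mg/kg and G1 with vehicle, while the lowest values were those of the males G34 and G40 at 125 mg/kg. All 5 mice at 125 mg/kg were below the vehicle median, but their range overlapped with that of vehicle. The fitted difference from vehicle was -0.53 ± 0.24 at 125 mg/kg, with an adjusted p of 0.417, and -0.32 without G1. At 250 mg/kg it was 0.24 ± 0.26, and at 500 mg/kg it was 0.10 ± 0.25 and turned to -0.12 without G4, 1 of the 2 mice whose libraries stood apart.

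Miat had 299, 132, 54.7, 106 and 142 CPM in the vehicle mice and 175, 126, 111, 149 and 97.3 CPM in the 125 mg/kg mice. It had 74.7, 323, 237 and 216 CPM at 250 mg/kg and 85.6, 153, 195 and 152 CPM at 500 mg/kg. Its lowest value was that of the vehicle female G9 and its highest those of the males G64 and G1, so the groups overlapped throughout. The fitted differences from vehicle at the 3 doses, low to high, were -0.13 ± 0.34, 0.32 ± 0.37 and -0.01 ± 0.36, each smaller than its error. Without G1 the difference at 125 mg/kg was 0.20.

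Snhg11 had 1750, 909, 659, 528 and 948 CPM in the vehicle mice and 807, 554, 744, 934 and 671 CPM in the 125 mg/kg mice. It had 906, 1768, 1329 and 1631 CPM at 250 mg/kg and 636, 1315, 1035 and 960 CPM at 500 mg/kg. G1 and G64 were again the 2 highest mice, and the female G49 lay below the 3 males of the same group. The difference from vehicle was -0.41 ± 0.24 at 125 mg/kg and 0.41 ± 0.26 at 250 mg/kg, with adjusted p-values of 0.547 and 0.9999. Without G1 these were -0.13 and 0.73. At 500 mg/kg the difference was 0.06 ± 0.26.

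Gas5 had 31.3, 38.4, 46.0, 36.6 and 41.8 CPM in the vehicle mice and 20.3, 20.6, 36.6, 33.9 and 24.5 CPM in the 125 mg/kg mice. It had 37.5, 41.1, 33.7 and 44.7 CPM at 250 mg/kg and 32.6, 29.2, 30.9 and 33.5 CPM at 500 mg/kg. Here G1 was the lowest vehicle mouse, unlike for the other 4 RNAs, and the lowest values were those of the females G25 and G29 at 125 mg/kg. All 5 mice at 125 mg/kg and all 4 at 500 mg/kg were below the vehicle median. Means were 27.2 ± 7.63 CPM at 125 mg/kg and 31.5 ± 1.93 CPM at 500 mg/kg, against 38.8 ± 5.53 CPM with vehicle. The differences were -0.56 ± 0.16 with an unadjusted p of 0.00281 and an adjusted p of 0.323 at 125 mg/kg, and -0.32 ± 0.17 with an adjusted p of 0.487 at 500 mg/kg. At 250 mg/kg the difference was -0.04 ± 0.17.

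Across all 5 RNAs no contrast with vehicle passed the threshold. The background of calls was 0% of tested genes for the 125 mg/kg contrast, also 0% for that of 250 mg/kg, and 0.0189% for that of 500 mg/kg. At an unadjusted p under 0.05 the members counted 3 of 5 at 125 mg/kg (Gas5, Malat1 and Neat1), against 11.2% of genes, 0 of 5 at 250 mg/kg, against 3.76%, and 0 of 5 at 500 mg/kg, against 11.6%. DESeq2 and limma-voom called 0 of 5 in each. The estimate at 125 mg/kg was negative for 5 of 5, as for 50.2% of genes. For 0 of 5 RNAs did every mouse of a dose group lie above, or every mouse below, every vehicle mouse, whereas 1.1% and 1.68% of genes did so at 125 mg/kg (above and below), 0.788% and 0.523% at 250 mg/kg, and 2.32% and 0.933% at 500 mg/kg. The contrasts share the 5 vehicle mice, among them G1. With the tag number as a block, the 125 mg/kg difference was -1.004 for Malat1, -1.18 for Neat1, -2.04 for Miat, -1.07 for Snhg11 and -0.49 for Gas5. The only tag number shared by vehicle and 125 mg/kg mice is 43, carried by the vehicle female G18 and the 125 mg/kg males G34, G40 and G45. These differences therefore set 3 males against 1 vehicle female. In that fit the sex term rests on the 250 mg/kg mice, with 1 female and 3 males.

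**Figure D2:**
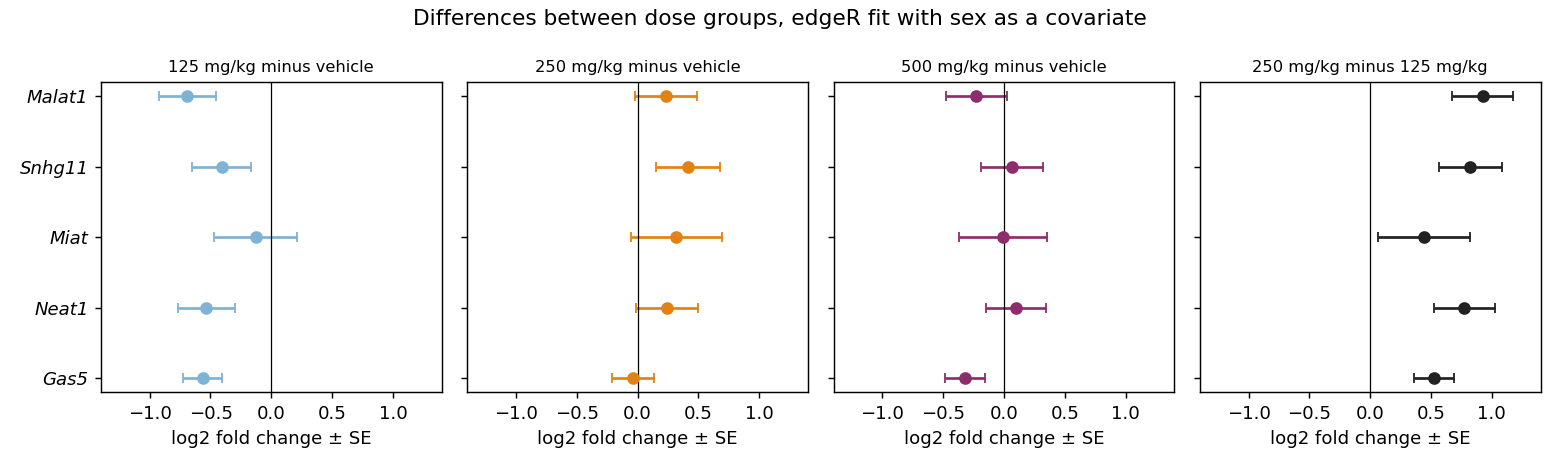
Fitted log2 fold changes ± SE of the 5 RNAs for 125, 250 and 500 mg/kg minus vehicle and for 250 mg/kg minus 125 mg/kg, with the line at 0 marking no difference. All 5 estimates are negative at 125 mg/kg minus vehicle, and none passed the adjusted threshold in edgeR in any of the contrasts. All 5 are positive at 250 mg/kg minus 125 mg/kg, 2 groups chosen after the levels had been seen.

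The contrast of 250 mg/kg with 125 mg/kg was chosen after the levels had been seen, and describes the gap between the highest and the lowest group. Malat1 was 0.92 ± 0.25 higher on the log2 scale at 250 mg/kg, Snhg11 0.82 ± 0.26, Neat1 0.77 ± 0.25, Gas5 0.52 ± 0.17 and Miat 0.44 ± 0.38. In edgeR 0 of 5 passed, against 0.0441% of genes, with adjusted p-values of 0.118, 0.145, 0.156, 0.147 and 0.572. All 5 estimates were positive, which followed from the choice of the 2 groups. The same choice raises the counts given here, so the shares of all genes beside them are no measure of an excess. At an unadjusted p under 0.05 the count was 4 of 5, against 17% of genes. DESeq2 called Malat1 alone of the 5, against 2.22% of genes, with an adjusted p of 0.0297, and limma-voom called none. Every 250 mg/kg mouse was above every 125 mg/kg mouse for Malat1 and Neat1, that is 2 of 5 members, against 4.78% of tested genes. For Snhg11, Miat and Gas5 the groups overlapped.

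Summed levels of cell type markers are given for the same contrast, in which 0 of 10 microglia, 0 of 8 endothelial and 0 of 13 general neuron markers passed. The counts at an unadjusted p under 0.05 were 4 (40%), 2 (25%) and 1 (7.69%), against 17% of genes. Of 8 glutamatergic neuron, 12 oligodendrocyte and 9 astrocyte markers 0 passed as well, against 0.0441% of genes. Their counts at an unadjusted p under 0.05 were 0, 1 (8.33%) and 1 (11.1%). The summed level of 10 microglia markers was 264 ± 33.5 CPM at 250 mg/kg and 353 ± 29.6 CPM at 125 mg/kg, with ranges of 229 to 304 and 328 to 403 CPM. No share over all genes is set beside this separation, and the 2 groups were chosen after the levels of the 5 RNAs had been seen. The 8 endothelial markers summed to 135 ± 3.46 CPM at 250 mg/kg and 109 ± 37.5 CPM at 125 mg/kg, and the 13 general neuron markers to 7703 ± 1011 CPM at 250 mg/kg and 8929 ± 506 CPM at 125 mg/kg, with ranges that overlapped for both lists. The glutamatergic neuron list had the largest median difference of these lists, -0.70 (log2), with 7 of 8 estimates negative. It summed to 3075 ± 1133 CPM at 250 mg/kg and 4156 ± 1504 CPM at 125 mg/kg. The oligodendrocyte list summed to 5783 ± 1099 and 6953 ± 2379 CPM, and the astrocyte list to 8539 ± 959 and 9577 ± 1157 CPM. The ranges of these lists overlapped too. The part of these differences in the levels of the 5 RNAs was not tested. In bulk tissue, fewer cells of a type cannot be told apart from less RNA per cell.

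Miat, Snhg11 and Malat1 had lower medians in females than in males, with differences that did not pass the test. Miat ranged from 54.7 to 175 CPM with a median of 116 CPM in the 8 females, against 97.3 to 323 CPM with a median of 173 CPM in the 10 males. The fitted female minus male difference was -0.73 ± 0.26 (log2, SE), with an unadjusted p of 0.00948 and an adjusted p of 0.459. Snhg11 ranged from 528 to 1315 CPM (median 733) in females and from 671 to 1768 CPM (median 997) in males, a difference of -0.56 ± 0.21 with an unadjusted p of 0.0163 and an adjusted p of 0.459. The sexes overlapped for both, and 0 of 5 members passed, against 0.0441% of genes, while at an unadjusted p under 0.05 the count was 2 of 5, against 10.1%, and DESeq2 and limma-voom called 0 of 5. Malat1 had a median of 7041 CPM in females and 8685 CPM in males, with a difference of -0.39 ± 0.23. The differences for Gas5 and Neat1, whose medians were slightly higher in females, were -0.09 ± 0.15 and -0.02 ± 0.21.

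Within dose groups the sex difference of Miat was not uniform. Mean Miat was 74.7 CPM in the 1 female at 250 mg/kg and 258 CPM in the 3 males, and 101 CPM in the 3 vehicle females and 215 CPM in the 2 vehicle males. At 125 mg/kg the order was the other way, with 150 CPM in 2 females and 119 CPM in 3 males, and at 500 mg/kg the means were 119 CPM in 2 females and 173 CPM in 2 males. A difference in dose slope between the sexes was not detected for any RNA. The female minus male slope was 0.53 ± 0.63 for Malat1, 0.55 ± 0.59 for Snhg11, 0.43 ± 0.57 for Neat1, -0.01 ± 0.72 for Miat and -0.27 ± 0.42 for Gas5, all with an adjusted p of 0.9999, and 0 of 5 passed, against 0% of genes. At an unadjusted p under 0.05 the count was also 0 of 5, against 1.65%, and DESeq2 called 0 of 5.

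**Figure D3:**
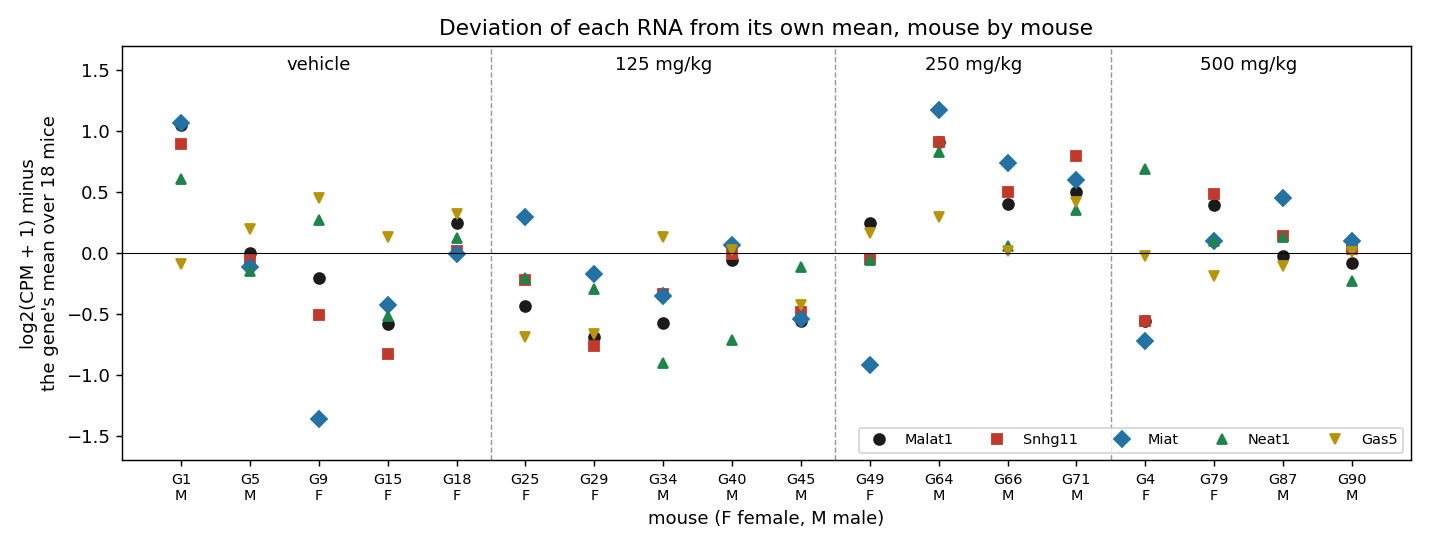
Deviation of log2(CPM + 1) of each RNA from its own mean over 18 mice, mouse by mouse, with dashed lines between dose groups and F or M for sex. Malat1, Snhg11 and Miat are high together in G1 and G64 and low together in G4, G15 and G45, while Gas5 is lowest in G25 and G29.

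Malat1 and Snhg11 varied together between mice, also between mice of the same group. Over the 18 mice, log2(CPM + 1) of the 2 RNAs had a Pearson r of 0.94 and a Spearman rho of 0.92, each with a permutation p of 1e-05, the smallest that 100000 resamples can give. Leaving out G1 and G64, the mice farthest from the Malat1 median, gave r = 0.91. After the group means were removed r was 0.95, and it was 0.90 in females and 0.97 in males. Leaving out any one mouse kept r between 0.93 and 0.95. The genes lie on different chromosomes.

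Miat followed Snhg11 with r = 0.80 and rho = 0.86 (permutation p of 6e-05 and 3e-05), and r was 0.77 without G9 and G64 and 0.81 within groups. Within sexes r was 0.36 in the 8 females and 0.96 in the 10 males. Miat with Malat1 gave r = 0.68 and rho = 0.69 (permutation p of 0.00196 and 0.00214), with 0.06 in females, 0.96 in males and 0.45 without G1 and G64. A difference between the sexes in these relations was not tested.

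Neat1, the neighbour of Malat1 on chromosome 19, followed it less closely. The pair gave r = 0.60 and rho = 0.61 (permutation p of 0.00906 and 0.00792), which was 0.36 without G1 and G64, 0.36 within groups, 0.20 in females and 0.84 in males, and 0.82 without G4 and G9, in which Neat1 was high relative to Malat1. Neat1 with Snhg11 gave r = 0.52 and rho = 0.49 (permutation p of 0.0272 and 0.0400, adjusted 0.0543 and 0.0799), and with Miat 0.32 and 0.31 (0.197 and 0.207). The 10 pairs were one family. After Benjamini-Hochberg adjustment the r of Malat1 with Snhg11, Miat and Neat1, and that of Miat with Snhg11, stayed under 0.05, with adjusted p-values of 1e-04, 0.00653, 0.0227 and 3e-04.

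None of the 4 correlations of Gas5 with the other RNAs passed after adjustment. Its r ranged from -0.08 with Miat to 0.41 with Malat1, with rho from -0.12 to 0.33 and permutation p-values for r from 0.0895 to 0.764. Its r with Malat1 was 0.48 without G1 and G64 and -0.09 within groups.

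**Figure D4:**
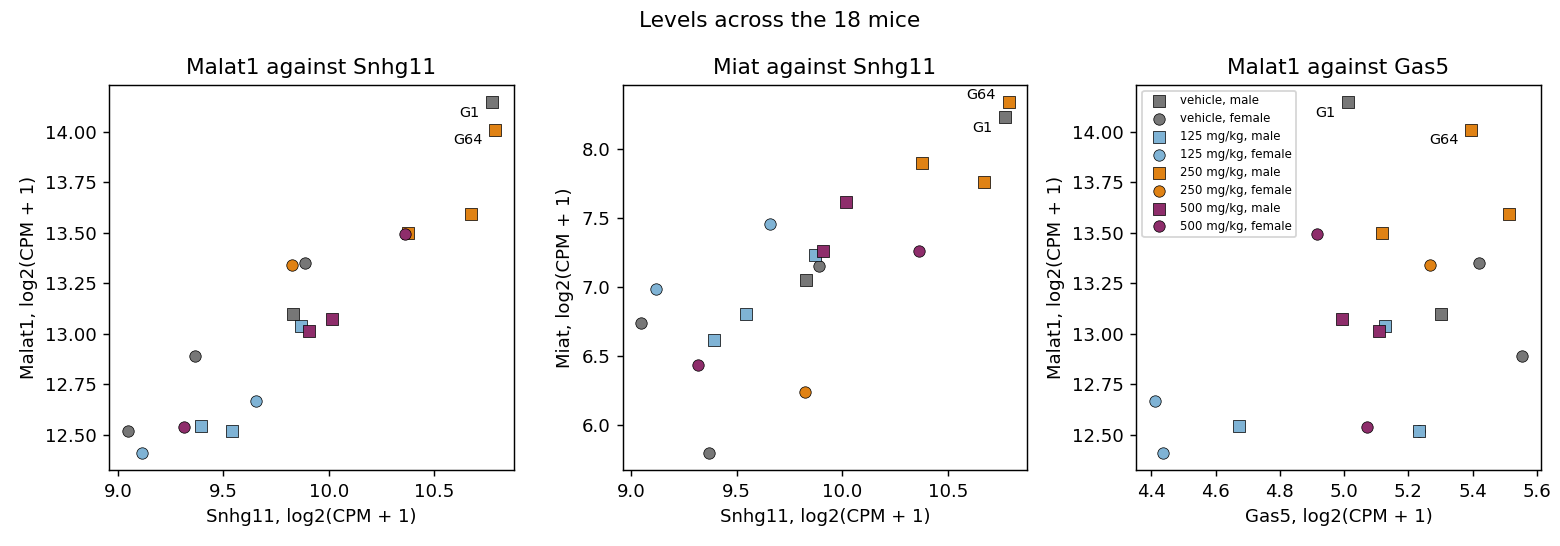
Levels across the 18 mice as log2(CPM + 1), Malat1 against Snhg11, Miat against Snhg11 and Malat1 against Gas5, with colours for dose and squares for males and circles for females. Malat1 and Snhg11 lie close to a line (r = 0.94), while Malat1 and Gas5 do not (r = 0.41).

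Depth and the summed levels of 7 cell type and region marker lists were compared with each RNA, 40 relations in all, and none passed after adjustment. The r of log2 total count was -0.44 with Malat1, -0.37 with Snhg11 and -0.42 with Gas5, with permutation p-values of 0.0634, 0.133 and 0.0880 and rho of -0.41, -0.40 and -0.25. Gas5 had r = 0.67 and rho = 0.71 with the endothelial sum (permutation p of 0.00252 and 0.00127, adjusted 0.0788 and 0.0508), and 0.59 without the 2 farthest mice. Miat had r = 0.64 and rho = 0.51 with the glutamatergic neuron sum (permutation p of 0.00394 and 0.0329, adjusted 0.0788 and 0.333), which was 0.38 without the 2 farthest mice. With the microglia sum, Gas5 had r = -0.57 and rho = -0.47 (permutation p of 0.0135 and 0.0533, adjusted 0.147 and 0.333) and Malat1 r = -0.41 and rho = -0.58 (permutation p of 0.0924 and 0.0119, adjusted 0.370 and 0.237), which without the 2 farthest mice were r = -0.30 and -0.54. With the astrocyte sum, Gas5 had r = -0.56 and rho = -0.47 (permutation p of 0.0147 and 0.0490, adjusted 0.147 and 0.333), and -0.18 without the 2 farthest mice.

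The genes whose levels were most like each RNA were looked up among 13293 other tested genes with a mean of at least 20 counts, by Pearson r of log2(CPM + 1) over the 18 mice and as a description. For Malat1 these were Cdr1os (r = 0.96), a long noncoding RNA whose locus also gives the circular RNA Cdr1as, Polq (0.95), DNA polymerase theta, and 4930565N06Rik (0.95). For Snhg11 they were Kcnq1ot1 (0.96), an imprinted antisense RNA, Nktr (0.96), a cyclophilin-related protein, and Alas2 (0.94), the erythroid enzyme of haem synthesis and the 1 blood marker that could be tested. For Miat they were Cacna1b (0.94), a subunit of the N-type calcium channel, Unc79 (0.93), a subunit of a sodium leak channel complex, and Phka2 (0.93), a phosphorylase kinase subunit. For Neat1 they were Dst (0.85), a cytoskeletal linker protein, Mboat1 (0.85) and Clgn (0.84). For Gas5 they were Srsf5 (0.79), an SR splicing factor, Slco1a4 (0.79), a transporter of brain capillaries that is also in the endothelial list, and Thoc2 (0.79), a subunit of an mRNA export complex. The median r over all genes compared lay between -0.04 and 0.01 for each of the 5.

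In a list of 28 other tested long noncoding RNAs, 0 passed in the dose regression, against 0.29% of all tested genes. There were 16 positive and 12 negative slopes with a median of 0.05, against 0.01 over all genes. In the test for any difference among groups 11 of 28 (39.3%) had an unadjusted p under 0.05, against 15% of genes, and 0 passed after adjustment. Kcnq1ot1, named above as the gene most like Snhg11, averaged 223 ± 107 CPM with vehicle, 157 ± 46.3 CPM at 125 mg/kg, 343 ± 98.6 CPM at 250 mg/kg and 261 ± 105 CPM at 500 mg/kg. Since it was named for that likeness, its sharing the order of doses of Snhg11 is no separate result. Rmst, Pantr1 and Mir9-3hg had the smallest p of the list in the dose regression, with slopes of 0.77 ± 0.32, -0.77 ± 0.32 and -0.53 ± 0.23 and adjusted p-values of 0.314, 0.310 and 0.331. The contrast of 250 mg/kg with 125 mg/kg was chosen after the levels of the members had been seen. The list also holds RNAs that varied with members, such as Kcnq1ot1 and also Meg3, whose r with Snhg11 was 0.93. The values over all genes given for this contrast are therefore no measure of an excess. For 250 mg/kg minus 125 mg/kg the median over the 28 was 0.31, against -0.00 over all genes. Of the 28, 12 (42.9%) had an unadjusted p under 0.05, against 17%. The estimates were positive for 18 and negative for 10. Among the latter, Bc1 averaged 47.1 ± 21.5 CPM at 125 mg/kg and 23.3 ± 6.88 CPM at 250 mg/kg.

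None of the listed protein partners of these RNAs passed the dose regression, which 0.29% of all tested genes did. Of 32 paraspeckle proteins, the components of the bodies that Neat1 builds, 0 passed, and 23 slopes were negative (48.8% of all genes), with a list median of -0.11, against 0.01 over all genes. The count at an unadjusted p under 0.05 was 8 (25%), against 13.2% of genes. Ewsr1, an RNA-binding protein, had a slope of -0.36 ± 0.10 (adjusted p of 0.148) and Rbm3, a cold-induced RNA-binding protein, -0.50 ± 0.16 (0.190). DESeq2 called 2 of the 32, against 1.4% of genes. Of 30 nuclear speckle and SR proteins, the factors found with Malat1, 0 passed, 2 (6.67%) had an unadjusted p under 0.05, and 25 slopes were negative with a median of -0.07. The smallest p-values were those of Pabpn1 (-0.27 ± 0.11), Rbm39 (-0.18 ± 0.09) and Sf3b1 (-0.20 ± 0.11).

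Of 4 splicing factors reported to bind Miat, 0 passed, against 0.29% of all tested genes. At so low a share, a count of 0 says little about lists as short as this and the next ones. The splicing regulator Qk had a slope of 0.34 ± 0.17, Celf3 -0.51 ± 0.31 and Srsf1 -0.12 ± 0.11, with adjusted p-values of 0.403, 0.495 and 0.680. Of 10 nonsense-mediated decay factors, the machinery that degrades Gas5, 0 passed, and Smg6, Smg5 and Upf2 had slopes of 0.27 ± 0.11, -0.10 ± 0.11 and 0.13 ± 0.15. Of 15 tested host genes of small nucleolar RNAs other than Gas5 and Snhg11, 0 passed, with a median of -0.08. Snhg16, Snhg12 and Zfas1 had slopes of 0.66 ± 0.31, -0.50 ± 0.28 and -0.40 ± 0.27. For 125 mg/kg minus vehicle 13 of these 15 were negative, against 50.2% of genes, with a median of -0.25, against -0.00 over all genes, and 2 (13.3%) had an unadjusted p under 0.05, near the 11.2% of all genes. Of the small nucleolar RNAs in the introns of Gas5 and Snhg11, Snord47 was the one matched in the table, with 0 to 8 reads per mouse, too few to test.

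Of 12 genes of the glucocorticoid receptor and its targets, listed because Gas5 has been described as a decoy of that receptor, 4 rose with dose, against 0.246% of all tested genes. The list was written with earlier results of these data known, so its share is no measure of an excess. Errfi1, a feedback inhibitor of growth factor receptors, averaged 57.4 ± 6.72 CPM with vehicle and 70.6 ± 6.39, 97.4 ± 14.5 and 117 ± 28.5 CPM at 125, 250 and 500 mg/kg, and had a slope of 1.05 ± 0.15 with an adjusted p of 0.00571. The transcription factor Klf15 (0.79 ± 0.11, 0.00571), the kinase Sgk1 (1.27 ± 0.24, 0.0341) and the inhibitor of NF-kappa-B Nfkbia (0.79 ± 0.16, 0.0431) passed too, and Nr3c1, the receptor, had a slope of -0.30 ± 0.12 with an adjusted p of 0.291. Gas5 itself did not follow this order of doses. The count of 4 was 1 without G4 alone and without G4 and G9 together, was 2 without G1, G5, G15 or G87, and 6 without G79. It was 7 in DESeq2, against 1.4% of genes, and 0 with the tag number as a block, a fit in which 0 genes of the whole table passed. In that fit dose varies only within the tag numbers 43 and 46, where the vehicle mice are female and the dosed mice male.

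Some cell and region markers rose with dose. The list of midbrain dopamine and hypothalamic markers was also written with earlier results of these data known, so its share is no measure of an excess. Of 11 tested markers of midbrain dopamine and hypothalamic neurons 3 rose, against 0.246% of all tested genes: Slc6a3, the dopamine transporter, Ddc and Irs4. Their list summed to 43.3 ± 34.9 CPM with vehicle and 49 ± 26.3, 78.1 ± 55.9 and 225 ± 111 CPM at 125, 250 and 500 mg/kg, and the count was 1 without G4, G5, G15 or G87 and 5 without G18. It was 5 of 10 in DESeq2, against 1.4% of genes, and 0 with the tag number as a block, where 0 genes of the whole table passed. The 12 oligodendrocyte markers all had positive slopes, of which 0 passed, and 10 (83.3%) had an unadjusted p under 0.05, against 13.2% of genes. They summed to 5976 to 16765 CPM at 500 mg/kg, against 4134 to 7365 CPM with vehicle. The 8 glutamatergic neuron markers all had negative slopes, of which 0 passed, and 3 (37.5%) had an unadjusted p under 0.05. They summed to 370 to 2470 CPM at 500 mg/kg, against 455 to 4564 CPM with vehicle. The lowest glutamatergic sums of these 2 groups were those of G4 and G9, the 2 mice whose libraries stood apart. The highest oligodendrocyte sum was that of G4. Ranges without G4 and G9 are not given here. Of the astrocyte, microglia and endothelial lists 0 of 9, 0 of 10 and 0 of 8 passed, as did 0 of 13 general neuron markers and 0 of 1 tested blood marker, against 0.29% of genes. At an unadjusted p under 0.05 the counts were 4 (44.4%), 1 (10%), 0, 5 (38.5%) and 0, in this order. The part of these markers in the levels of the 5 RNAs was not tested.

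No gene within 50 kb of a member passed the dose regression either, against 0.29% of all tested genes. Frmd8, 5.49 kb from Neat1, had a slope of 0.38 ± 0.21 with an adjusted p of 0.447 and an r of -0.45 with Malat1 and 0.14 with Neat1. Ralgapb, 23.4 kb from Snhg11, had r = 0.60 with it, and Snhg17, another host gene 14.2 kb away, r = 0.48. Zbtb37, which overlaps Gas5, had a slope of -0.06 ± 0.15 and an r of 0.28 with Gas5. It averaged 16.4 ± 2.02 CPM at 125 mg/kg, against 19.8 ± 4.07 CPM with vehicle.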

How the data were processed

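Gene counts came from the brains of 18 mice. According to the methods, the authors aligned reads with STAR 2.7.5b to GRCm38 and summed reads over genes by featureCounts; these raw counts, as deposited, were analysed. The strand setting of the counting is not given in the sources used here. Entrez identifiers were matched to symbols through RefSeq, and 5 of 5 members were found. Genes were filtered with filterByExpr (minimum count 10) and tested with edgeR 4.0.16 (TMM scaling, quasi-likelihood F test) in R 4.3.3, on dose divided by 500 or on dose group, with sex as a covariate and Benjamini-Hochberg adjustment at 0.05. The scripts were tested on simulated data. DESeq2 1.42.0 and limma-voom (limma 3.58.1), other scalings, filters, covariates and sample sets were the alternatives. The members and gene lists were chosen with earlier results of these data known. Named genes were the members, the called genes of each list or the 3 with the smallest p, tested genes within 50 kb, and the 3 most correlated genes. Some genes that this rule names are not reported here. Correlations used log2(CPM + 1).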

Additional observations from a re-analysis of the deposited data

How the results depend on the processing

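The 14 alternatives other than leaving out 1 mouse, and the 18 that leave out 1 mouse each, gave 1030 member values to compare with those reported. Of these, 970 kept their side of the threshold and, where the test has one, their direction, 59 reversed in sign, 1 newly passed and 0 stopped passing. No member passed in the reported tests of dose and sex, so none could stop passing. The value that newly passed was Malat1 at 250 mg/kg minus 125 mg/kg in DESeq2 (0.90, 1 member called). The causes of the changes were not tested.

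The female minus male slope of Miat was 0.018 with DESeq2 size factors, 0.0104 with the members left out of the library sizes, 0.014 with at least 10 counts in every library, 0.0156 in DESeq2 and 0.0423 without G4 and G9. The dose slope of Malat1 was -0.00465 without a filter and -0.28 in males alone, that of Snhg11 -0.0479 in males alone, and that of Neat1 -0.0509 with the tag number as a block. For 250 mg/kg minus vehicle, Gas5 was 0.0156 without the sex covariate, 0.0227 without G4 and G9 and 0.0324 with only the 2 groups compared, where Miat was -0.0129. For 500 mg/kg minus vehicle, Neat1 was -0.0776 without G4 and G9 and -0.48 with the tag number as a block, where Snhg11 was -0.0500, and Miat was 0.0821 in limma-voom, in which Neat1 was 0.0456 for female minus male. The correlation of Miat with Gas5 was 0.13 without G4 and G9.

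The number of genes called over the whole table varied with the setting. In the dose regression it was 46, and 29 without a filter, 27 with dose as rank, 2 without G4 and G9, 229 in DESeq2, and 0 with the tag number as a block, in males alone, in females alone and without the 500 mg/kg mice. For any difference it was 7, and 2 without G4 and G9 and 540 in DESeq2. For 125 mg/kg minus vehicle it was 0, and 1 with DESeq2 size factors, without a filter, without G4 and G9 and in limma-voom, and 40 in DESeq2. For 500 mg/kg minus vehicle it was 3, and 9 without a filter, 8 with at least 10 counts in every library, 7 without the sex covariate, 1 without G4 and G9, 1 with only the 2 groups compared, 0 with the tag number as a block and 166 in DESeq2. For 250 mg/kg minus 125 mg/kg it was 7, and 2 with DESeq2 size factors, with the members left out of the library sizes, without G4 and G9 and in limma-voom, 4 without a filter and 372 in DESeq2. For the departure from a line it was 1, and 2 without a filter and without G4 and G9, 0 without the sex covariate and 148 in DESeq2. For female minus male it was 7, and 2 with at least 10 counts in every library and 22 in DESeq2.

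Leaving out 1 mouse each, the dose slope ran from -0.24 (without G79) to 0.26 (without G1) for Malat1, -0.0902 to 0.31 for Miat and -0.0336 to 0.47 for Snhg11, with the same mice at the ends, and genes called from 2 to 127. The 125 mg/kg difference of Miat ran from -0.41 to 0.20 (genes called 0 to 1), and the 250 mg/kg difference of Gas5 from -0.16 to 0.034. At 500 mg/kg the differences ran from -0.51 to 0.0516 for Malat1, -0.12 to 0.29 for Neat1, -0.19 to 0.33 for Miat and -0.26 to 0.32 for Snhg11 (genes called 0 to 19). Female minus male Neat1 ran from -0.12 to 0.11 (genes called 7 to 11), and r of Miat with Gas5 from -0.20 to 0.12. Genes called ran from 1 to 22 for any difference and from 0 to 32 for 250 mg/kg minus 125 mg/kg. The tag number as a block was not run for 250 mg/kg minus vehicle, since all mice of that dose carry 1 tag number that no other mouse has. No 2 mice share an individual number, so groups were not paired by it.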
